A study of Mus musculus with 12 samples.

Results

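The 10 genes described here encode kinesins of cell division: Kif11, Kif14, Kif15, Kif18a, Kif20a, Kif20b, Kif22, Kif23, Kif2c and Kifc1. They were taken by symbol, with earlier results of these data known, and each symbol matched exactly 1 of the 32688 genes of the count table. All 10 were among the 18066 genes tested. After etoposide, transcripts of all 10 stood lower in DKO libraries than in any Null library. The share of all genes separated in this way is not given here. All 10 passed the test as lower in DKO cells, beside 17.8% of all genes tested. In Null cells 9 of them fell and 1, Kifc1, rose, beside 18.7% of all genes called lower and 20.9% higher. The rise of Kifc1 did not pass under some alternative fits. In DKO cells all 10 fell, beside 19.1% of all genes called lower.

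RNA was sequenced from RAW264.7 cells, a mouse macrophage line, in 12 libraries, 3 in each of 4 groups. DKO cells lack both TFEB and TFE3 (TFEB/TFE3 knockout made by CRISPR), and Null cells, named WT in the text of the study, carry neither deletion. Each genotype was given either 100 µM etoposide for 8 h or no etoposide (control), where the labels write untreated and the methods name DMSO. Etoposide is a topoisomerase II poison that leaves breaks in DNA. All groups share the RAW264.7 background, and each genotype is 1 line, so a property of that line and the loss of the factors cannot be told apart. The samples given etoposide are called independent in the study, but what was repeated (culture, treatment or extraction) was not given in the sources used here, so p-values measure the spread between these libraries, part of which may be technical.

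Kinesins are motors that hydrolyse ATP to walk along microtubules or to take apart their ends. The mitotic kinesins push spindle poles apart, move chromosomes to the spindle equator, and bundle the midzone microtubules at which the cell divides. Most of them are made from late S phase to mitosis and are nearly absent from resting cells. Their promoters are known for a cell cycle element (CDE) and cell cycle genes homology region (CHR), the latter bound by the MuvB core, which represses in the DREAM complex with p130 or p107 and activates with B-Myb and FOXM1.

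The 30 bases around the CHR word that lies closest to the start are shown for the 6 members in which that word begins within 20 bases of the start, a limit set after the positions had been seen, so that its surroundings can be compared. The sequences are from RefSeq on GRCm38.p6, are written 5′ to 3′ on the strand of the gene, and carry the CHR word (TTTGAA, or TTCAAA when read from the other strand) in capitals. In Kif20b a pair of adjacent words is capitalised, and in Kif23 the capitals ATTGG mark a CCAAT word on the opposite strand.
Kif11, chr19:37376351-37376380, plus strand: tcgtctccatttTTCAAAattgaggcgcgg
Kif15, chr9:122951050-122951079, plus strand: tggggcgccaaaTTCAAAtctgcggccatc
Kif20b, chr19:34922353-34922382, plus strand: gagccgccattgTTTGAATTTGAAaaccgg
Kif22, chr7:127042420-127042449, minus strand: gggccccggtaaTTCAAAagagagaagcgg
Kif23, chr9:61946780-61946809, minus strand: ctgATTGGcctgTTTGAAatgcgccgggcg
Kifc1, chr17:33890615-33890644, minus strand: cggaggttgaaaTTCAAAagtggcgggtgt

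In these pieces the first base of the word lay at -19 in Kif11, -19 in Kif15, 8 in Kif20b, -17 in Kif22, 3 in Kif23 and 2 in Kifc1, with 1 as the first base of the RefSeq transcript and -1 as the base before it. RefSeq windows from 250 bases before to 50 after the start were held for 9 members, Kif20a being the other. A CHR word (TTTGAA or TTCGAA, both strands) was found in 8 of these 9 windows and in 19.2% of all 32851 promoters of the same length. Kif18a was the member without one. A CCAAT word, bound by the trimeric factor NF-Y, was found in 5 of 9 (Kif11, Kif14, Kif22, Kif23 and Kifc1) and in 37.4% of promoters. Those 5 held both words, as did 7.52% of promoters.

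An E2F word (TTTGGCGC, TTTCCCGC, TTTCGCGC or TTTGCCGC, both strands) was found in Kif15 and Kif18a, and in 2.26% of promoters. In both it read GCGCCAAA, at -27 in Kif15, next to its CHR word, and at -10 in Kif18a. The E-box CACGTG, a word that TFEB and TFE3 can bind, was in 0 of 9 windows and in 7.15% of promoters, and the longer CLEAR word, this E-box with its flanking bases (GT before and AC after), in 0 of 9 and in 0.326%. These counts describe letters in a window and nothing about binding. Within those 20 bases either side of the start, 6 of 9 members held a CHR word, against 2.33% of promoters. That limit was set after the positions of the members had been seen, so this comparison is not a test. The RefSeq starts of Kif14 and Kif2c lie 1505 and 3867 bases inside the genes as annotated by GENCODE, so their windows are not those of the upstream start. In Kif15, Kif22 and Kifc1 the RefSeq start lies 35, 51 and 28 bases inside the GENCODE gene. In Kif11, Kif20b and Kif23 it lies before the GENCODE start (-21, -3 and -25 bases). How near a word lies to the start therefore depends on the annotation used.

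**Figure D1:**
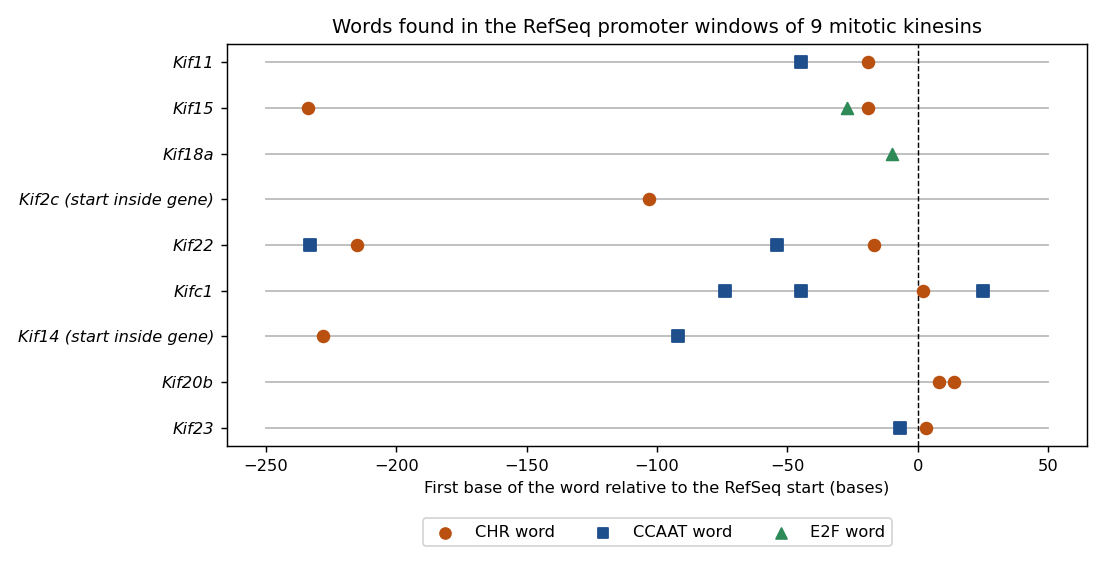
Position of each CHR, CCAAT and E2F word (symbols) in the RefSeq windows of 9 members (rows), as the distance in bases of its first base from the RefSeq start (dashed line). In 6 members a CHR word begins within 20 bases of the start, a limit set after the positions had been seen.

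The targeted genes were checked first. Tfeb stood at 17.2, 16.6 and 16.8 CPM (counts scaled to library size, adjusted by trimmed mean of M values, TMM) in Null control libraries and at 3.14, 4.83 and 5.25 in DKO control libraries. After etoposide it was 7.62, 7.10 and 7.95 CPM in Null and 4.27, 4.30 and 4.44 in DKO cells. Tfe3 was 89.4 to 119 CPM in the 6 Null libraries and 31.5 to 42.5 in the 6 DKO libraries. Both genes were lower in every DKO library than in any Null library of the same treatment, although a CRISPR edit need not remove the transcript.

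Library totals ran from 29837255 to 61809316 counts. MEFs, a fibroblast name, appears in the titles given to the 3 DKO etoposide libraries, against RAW264.7 in the rest of their labels. All 8 macrophage markers examined were detected in every group, with summed levels of 4193 to 5132 CPM over the 12 libraries (4585 to 4775 in DKO etoposide libraries), and the 8 fibroblast markers summed to at most 2.04 CPM in any library and to 0.962 to 1.2 in DKO etoposide libraries. Of the 8 macrophage markers, after etoposide 2 were called lower and 2 higher in DKO cells (17.8% and 15.9% of all genes), with Fcgr1 at 36.3 to 37.3 CPM in Null and 4.72 to 5.42 in DKO libraries (log2 difference -2.84) and Spi1 higher by 1.01. Col1a1, Col1a2, Col3a1, Dcn, Lum, Pdgfra and Postn were at 0 in all Null control libraries, and Lum was at 0 in all DKO etoposide libraries.

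Etoposide lowered 9 of the 10 members in Null cells and raised 1, Kifc1 (limma, adjusted p under the threshold of 0.05 over all genes tested), where 39.6% of all genes tested were called in either direction, 18.7% lower and 20.9% higher. In DKO cells all 10 fell, where 39.3% of genes were called, 19.1% lower and 20.2% higher. The median log2 difference of the members was -0.71 in Null and -3.31 in DKO cells, beside 0.03 for all genes in each line. Summed over the members, the level was 1085 ± 88.8 CPM (SD, n = 3) in Null control, 691 ± 19.2 in Null etoposide, 1196 ± 45.6 in DKO control and 116 ± 2.33 in DKO etoposide libraries. In bulk RNA, fewer cells in the phase that makes a transcript and less of it per cell cannot be told apart.

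**Figure D2:**
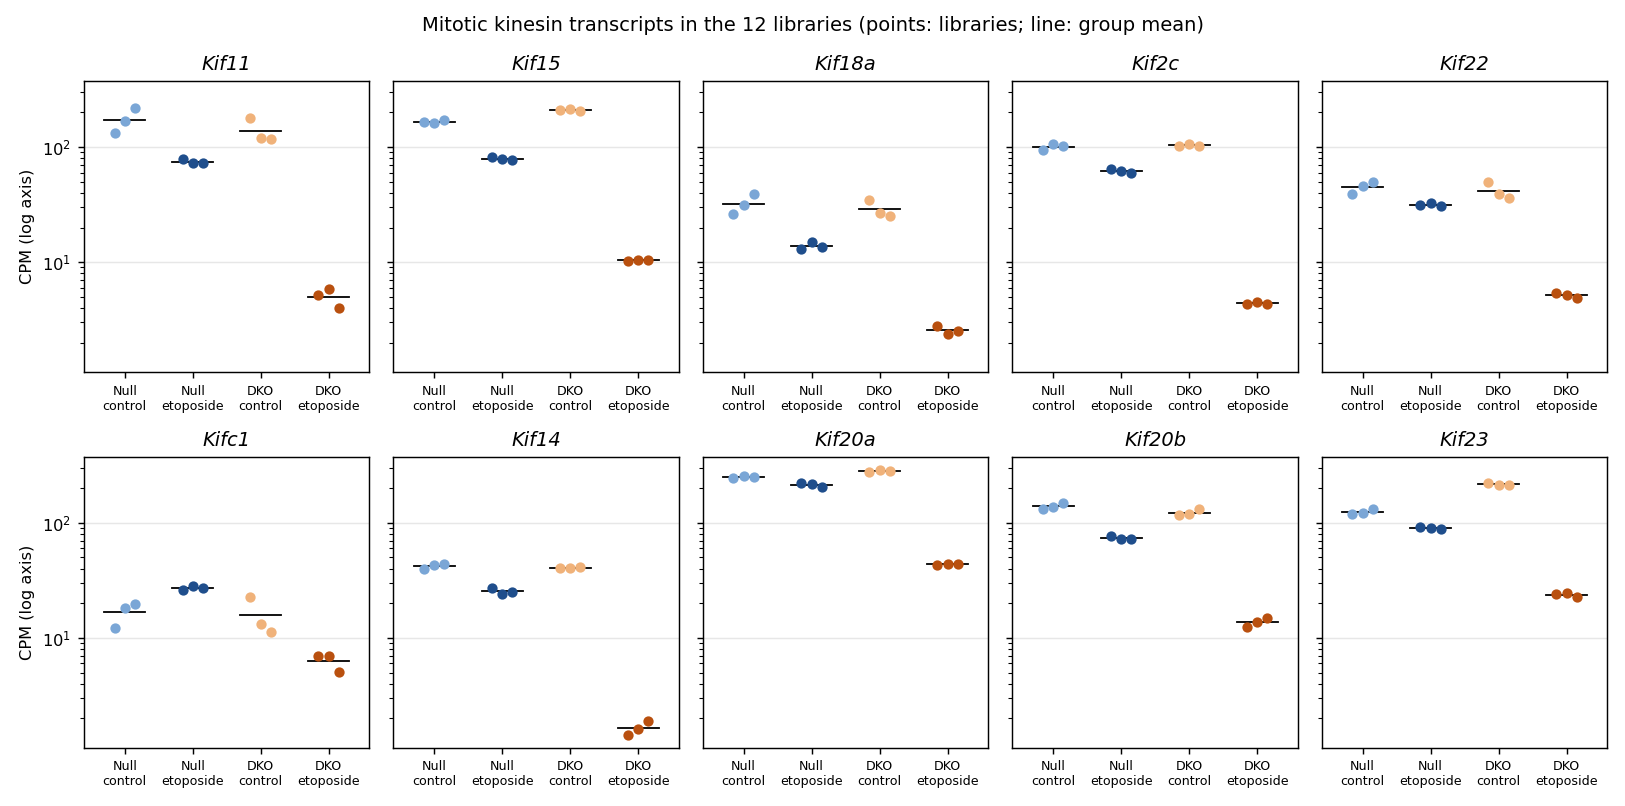
Level of each member in CPM (log axis) in the 12 libraries; points are libraries, lines are group means, and the 4 groups are spread along each x axis. The DKO etoposide libraries lie below all others for each of the 10 genes, and only Kifc1 is higher in Null etoposide than in Null control libraries.

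The motors that hold the spindle poles apart were among the most reduced members in both lines. Kif11 (Eg5) slides antiparallel microtubules and is needed to make a bipolar spindle. It stood at 133, 167 and 218 CPM in Null control, 78.2, 72.9 and 72.0 in Null etoposide, 180, 119 and 117 in DKO control and 5.20, 5.86 and 3.98 in DKO etoposide libraries. The control libraries were spread widely, yet neither line's etoposide libraries overlapped its controls. Kif11 kept 43.1% ± 6.29 (SE, n = 3 against 3) of its control level in Null cells and 3.62% ± 0.671 in DKO cells, a 27.6-fold fall. The log2 difference was -1.18 (SE 0.201, limma adjusted p = 0.000491) in Null and -4.76 (adjusted p = 1.89e-09) in DKO cells.

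Kif15, which can keep the spindle bipolar beside Kif11, was among the most even of the members. It stood at 164, 160 and 171 CPM in Null control and 81.2, 78.1 and 77.2 in Null etoposide libraries, and at 208, 214 and 204 in DKO control and 10.2, 10.5 and 10.4 in DKO etoposide libraries. Each group was apart from the other 3. Its level fell by 1.06 on the log2 scale in Null cells (SE 0.0583, limma adjusted p = 4.56e-08) and by 4.32 in DKO cells (adjusted p = 4.50e-13), leaving 47.8% and 4.97% of the control level.

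Kif18a and Kif2c act on microtubule ends at the chromosomes. Kif18a, which damps chromosome movement at the metaphase plate, was at 26.2, 31.1 and 38.9 CPM in Null control, 13.1, 15.1 and 13.5 in Null etoposide, 34.8, 26.5 and 25.3 in DKO control and 2.82, 2.40 and 2.53 in DKO etoposide libraries. Its etoposide libraries lay below its control libraries in both lines, with 43.4% of the level left in Null (log2 difference -1.18, SE 0.153, limma adjusted p = 5.93e-05) and 8.94% in DKO cells (-3.44, adjusted p = 3.05e-09). Kif2c (MCAK) takes apart microtubule ends and corrects wrong attachments at the kinetochore. It was at 93.3, 106 and 103 CPM in Null control and 103, 106 and 103 in DKO control libraries, so the lines overlapped without the drug. After etoposide it was at 64.4, 62.5 and 59.5 CPM in Null and 4.36, 4.50 and 4.32 in DKO cells, or 61.6% and 4.22% of control (log2 differences -0.70 and -4.55, limma adjusted p = 6.02e-06 and 7.28e-13).

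Kif22 (Kid) binds DNA and pushes chromosome arms from the poles. It stood at 38.7, 46.2 and 49.9 CPM in Null control, 31.4, 32.9 and 30.6 in Null etoposide, 49.6, 39.2 and 36.4 in DKO control and 5.4, 5.23 and 4.88 in DKO etoposide libraries. The fall in Null cells was modest, to 70.4% of control (log2 difference -0.50, SE 0.121, limma adjusted p = 0.00566), and that in DKO cells went to 12.4% (-2.99, adjusted p = 1.29e-09).

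Kifc1 (HSET), the minus-end motor that focuses spindle poles, was the exception. It stood at 12.2, 18.2 and 19.7 CPM in Null control and 25.9, 28.2 and 27.3 in Null etoposide libraries, with no overlap. In DKO cells it went from 22.5, 13.3 and 11.3 to 7.0, 6.94 and 5.03 CPM, again with no overlap. The rise in Null cells was to 162% ± 22.7 (SE) of control (log2 difference 0.73, 95% confidence interval 0.20 to 1.25, limma adjusted p = 0.0304), and the fall in DKO cells was to 40.2% ± 9.77 (-1.26, adjusted p = 0.00123). The call in Null cells was lost without Null control replicate 1, its lowest library, at 0.51 (adjusted p = 0.117), and without any 1 of the Null etoposide libraries, at 0.70 to 0.75 (adjusted p from 0.0661 to 0.0859). That call was also lost with replicate number added to the fit as a block (0.73, limma adjusted p = 0.0563). Of the 75-base words of Kifc1, 26.1% also occur in other genes, mainly in its near-copy Kifc5b, so counts may be lost or split between them. Kifc5b moved the same way, by 1.2 in Null (limma adjusted p = 0.00364) and -1.24 in DKO cells (adjusted p = 0.00285).

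The 4 members of the midzone and of cytokinesis kept 53.0% (Kif20b) to 85.9% (Kif20a) of their control level in Null cells. Kif20a (MKLP2), which carries the chromosomal passenger complex to the midzone, was at 242, 256 and 249 CPM in Null control and 219, 217 and 205 in Null etoposide libraries, and at 274, 287 and 282 in DKO control and 43.1, 44.0 and 43.5 in DKO etoposide libraries. It kept 85.9% of its level in Null cells, the smallest change there (log2 difference -0.22, SE 0.0587, limma adjusted p = 0.0103, and 0.062 without Null etoposide replicate 3), and 15.5% in DKO cells (-2.69, adjusted p = 7.18e-12). Kif20a overlaps Cdc23 on the opposite strand over 1271 bases of exon. If strand was not used in the counting, reads of Cdc23 could make up 9.37% to 9.71% of its counts in the other groups. In DKO etoposide libraries the share would be 19.0%. These shares are estimates for the highest library of each group and take the reads of Cdc23 as spread evenly over its exons.

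Kif23 (MKLP1), the motor of centralspindlin, stood at 118, 121 and 132 CPM in Null control, 91.6, 90.2 and 88.4 in Null etoposide, 219, 211 and 214 in DKO control and 24.1, 24.3 and 22.8 in DKO etoposide libraries. It kept 72.8% in Null (log2 difference -0.46, limma adjusted p = 0.000109) and 11% in DKO cells (-3.18, adjusted p = 4.44e-12). Kif14, which binds Prc1 and citron kinase at the midbody, was at 39.4, 43.2 and 43.6 CPM in Null control and 40.6, 40.3 and 41.1 in DKO control libraries, and at 27.2, 24.2 and 24.8 in Null etoposide and 1.45, 1.61 and 1.91 in DKO etoposide libraries. The last were its lowest by far, and rested on 80 to 116 counts per library. Kif14 kept 60.4% in Null and 4.07% in DKO cells (log2 differences -0.73 and -4.58, limma adjusted p = 9.76e-05 and 7.18e-12).

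Kif20b (MPP1), which acts in the last steps of cytokinesis, was at 131, 136 and 149 CPM in Null control, 76.8, 71.9 and 71.5 in Null etoposide, 116, 119 and 131 in DKO control and 12.4, 13.7 and 15 in DKO etoposide libraries. Its shares left were 53.0% and 11.2% (log2 differences -0.91 and -3.15, limma adjusted p = 3.49e-06 and 3.45e-11). Over the 10 members the share left ran from 43.1% to 162% in Null cells (median 61.0%) and from 3.62% to 40.2% in DKO cells (median 9.97%).

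**Figure D3:**
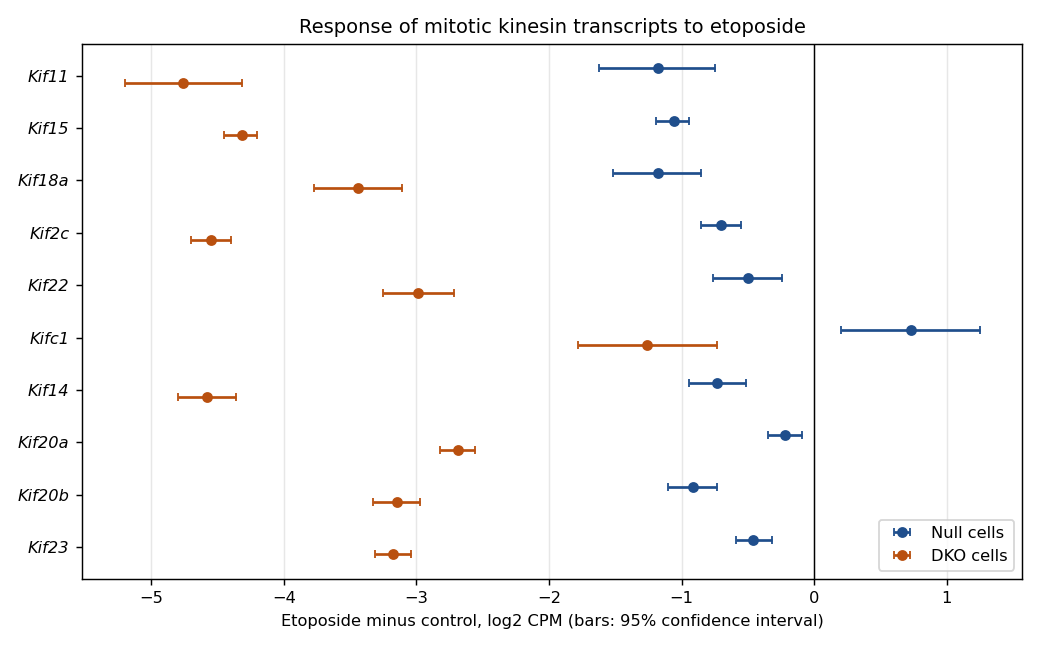
Log2 CPM difference of etoposide minus control for each member in Null and in DKO cells; points are fitted differences and bars 95% confidence intervals. The intervals of the lines do not overlap for any member, and Kifc1 is the member whose Null difference is above 0.

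The difference between the responses of the lines was tested itself as an interaction term. It was negative for all 10 members, where 9.45% of genes tested were called, 6.39% lower and 3.07% higher. The interaction was -3.85 for Kif14 and for Kif2c (SE 0.141 and 0.0969), -3.57 for Kif11, -3.26 for Kif15, -2.72 for Kif23, -2.49 for Kif22, -2.47 for Kif20a, -2.26 for Kif18a, -2.24 for Kif20b and -1.98 for Kifc1 (limma adjusted p from 4.09e-10 to 0.00245). Their median was -2.60, against -0.01 for all genes. This term, and the comparisons within each treatment that follow, are drawn from the same 12 libraries.

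Without etoposide, 2 of the members were higher in DKO control than in Null control libraries and 8 did not pass the test, where 19.3% of genes were called, 10.9% higher and 8.39% lower, so the count is near that of all genes. With only the 2 control groups fitted, 2031 of 16626 genes were called between them. Kif23 was 174% of its Null level (log2 difference 0.80, SE 0.0635, limma adjusted p = 1.52e-06) and Kif15 127% (0.34, SE 0.0583, adjusted p = 0.000982). Kif20a was also higher and Kif20b lower in DKO controls without overlap between libraries, but neither passed (0.18, adjusted p = 0.0563, and -0.19, adjusted p = 0.165). The difference was 0.05 (95% confidence interval -0.10 to 0.20) for Kif2c and -0.05 (-0.26 to 0.17) for Kif14. It was less closely bounded for Kif11 (-0.32, -0.75 to 0.12), Kif18a (-0.15, -0.48 to 0.19), Kif22 (-0.11, -0.37 to 0.15) and Kifc1 (-0.12, -0.65 to 0.40), whose control libraries were spread.

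That spread followed the same libraries. Kif11, Kif18a, Kif22 and Kifc1 were each lowest in replicate 1 of the Null controls and highest in replicate 1 of the DKO controls. Plk1, a kinase of mitotic entry, and Tpx2, a partner of Kif11 and Kif15, went the other way, with Plk1 at 129, 86.2 and 67.2 CPM in Null control and 73.4, 131 and 141 in DKO control libraries. The SD of log2 CPM reached 0.37 among members in Null control and 0.52 in DKO control libraries, and the median SD of all genes was 0.21 and 0.24 there, against 0.09 and 0.15 in the etoposide libraries of Null and DKO. The labels name 2 RNA extraction kits without a library for either, and the part of a kit in this spread was not tested.

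After etoposide all 10 members passed the test as lower in DKO than in Null cells. Of all genes, 33.6% were called, 17.8% lower and 15.9% higher. The libraries of the 2 lines did not overlap for any member, but the share of all genes without overlap is not given here. DKO levels were 6.52% to 26.4% of Null levels (median 17.5%). Kif14, Kif11 and Kif2c were furthest apart, 15.3-fold, 14.8-fold and 14.1-fold lower (log2 differences -3.90, -3.89 and -3.80, limma adjusted p from 1.15e-11 to 1.69e-08). Kif15 was 7.60-fold and Kif22 6.11-fold lower (-2.92 and -2.60). Kif18a, Kif20b and Kif20a were 4.91-fold to 5.39-fold lower, Kifc1 4.29-fold and Kif23 3.79-fold lower, the last at -1.92 (SE 0.0635, adjusted p = 3.24e-10).

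Compared per length of exon, the order of the members shifted with etoposide. Kif20a was the most abundant in all 4 groups, at 57.4 ± 1.61 CPM per kilobase (SD, n = 3) in Null control, 49.3 ± 1.67 in Null etoposide, 64.8 ± 1.52 in DKO control and 10.0 ± 0.0976 in DKO etoposide libraries. Kif11, Kif2c and Kif20b followed in Null control libraries at 23.1, 23.1 and 19.9 CPM per kilobase, and neighbours among these 3 overlapped. By group mean, Kif11 in DKO cells went from the fifth place in control libraries, at 18.5 CPM per kilobase, to the eighth after etoposide, at 0.672. Its control libraries overlapped those of Kif2c, Kif15 and Kif20b, so its starting place is not settled. Kifc1 moved from the eighth place in DKO control, where it overlapped Kif14 and Kif18a, to the fourth, at 1.85. There it overlapped Kif20b at 1.97. Kif23 was second in both DKO groups, at 27.2 and 3.00 CPM per kilobase. Kif18a was the lowest in 3 groups, overlapping Kif14 in Null control libraries, and Kif14 the lowest in DKO etoposide libraries at 0.160 CPM per kilobase.

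**Figure D4:**
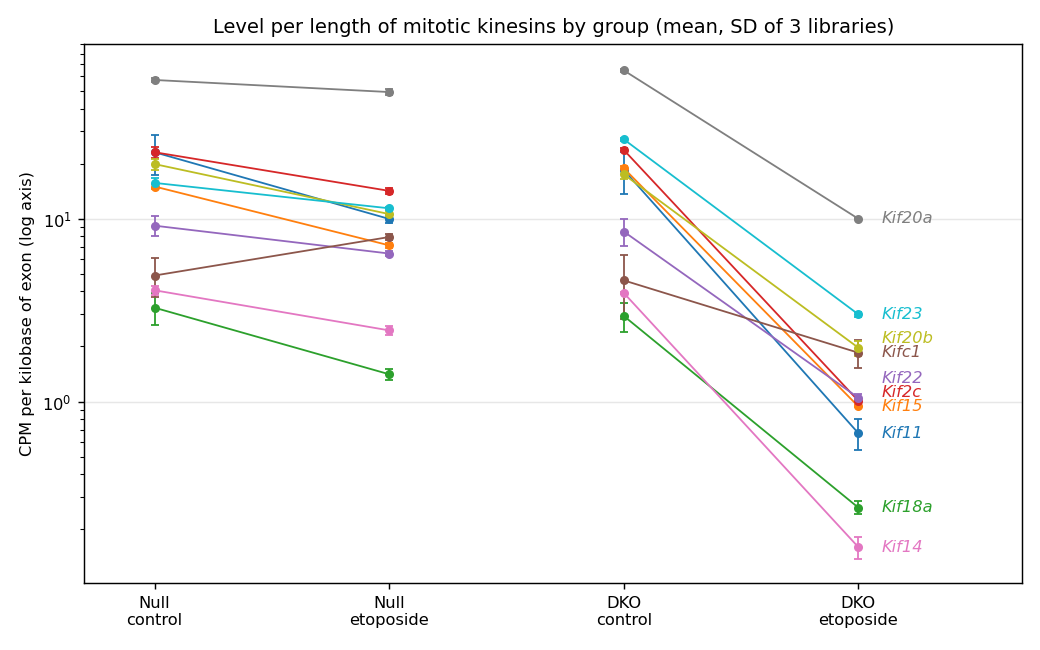
Mean level in CPM per kilobase of exon (log axis) of each member in the 4 groups; bars are the SD of 3 libraries and lines join control and etoposide within a line. Kif20a is highest throughout, and within DKO cells the mean of Kif11 goes from the fifth to the eighth place.

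The members were closely alike across the 12 libraries. Pearson's r of log2 CPM between members ran from 0.66 (Kif23 with Kifc1) to 1.0 over 45 pairs, with a median of 0.98. Kifc1 stood furthest from the rest, with r = 0.75 to the mean of the other 9, and the others had 0.95 or more. The genes most like the mean of the members over the 12 libraries were Ccnb1 (r = 0.9992) and Cdk1 (0.9984), the cyclin and kinase of mitotic entry, Cdc25c (0.9982), the phosphatase that activates them, Depdc1a (0.9973) and Nuf2 (0.9972), a kinetochore subunit. The libraries fall into 4 groups that share treatment and line, so these values describe group levels above all.

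Of 6 further kinesins of mitosis, 5 were in the table, and Kif2b was not listed. In DKO cells etoposide lowered all 5, and after etoposide 4 of 5 had lower levels in DKO than in Null cells, beside 19.1% and 17.8% of all genes called lower in these comparisons. Cenpe, the kinetochore motor that aligns chromosomes, was 132 to 158 CPM in Null etoposide and 15.4 to 16.9 in DKO etoposide libraries (log2 difference -3.15, limma adjusted p = 2.98e-11), and in Null cells its response to etoposide was -0.18 (adjusted p = 0.0795). Kif18b, which shortens astral microtubules, rose in Null cells like Kifc1, from 81.1 to 91.0 CPM up to 120 to 121 CPM (0.50, adjusted p = 0.000618), and fell in DKO cells (-2.35, adjusted p = 6.18e-10). Kif4, a chromokinesin of the midzone, fell in both lines (-1.16 and -2.84). If strand was not used, the estimate made for Kif20a puts reads of the overlapping Pdzd11 at 263% of the Kif4 counts in DKO etoposide libraries. A share of counts cannot be that high, so the part of Pdzd11 in them is not known. Kif2a, a depolymerase that neurons also use, had -0.20 between the lines after etoposide (adjusted p = 0.369), and reads of Dimt1 could make up 72.0% of its counts there.

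The kinesins that carry cargo, serve cilia or act elsewhere were listed for comparison. Of 27 listed, 21 passed the filter on low counts. After etoposide, 6 had lower and 3 higher levels in DKO cells, and 12 did not pass, beside 17.8% of all genes called lower and 15.9% higher, with a median log2 difference of 0.04 beside -2.51 for the mitotic members. The 3 furthest lower were Kif13a (-2.47), at 0.807 to 1.04 CPM in Null etoposide and 0.105 to 0.132 in DKO etoposide libraries, Kif24, a centriole kinesin (-1.25), and Kif19a (-1.21). The 3 furthest higher were Kifc3 (0.52), Kif3c (0.24) and Kif1b (0.18). The calls of Kif19a, Kif3c and Kif1b were lost under 4 of 22, 13 of 23 and 11 of 23 alternatives, and reads of an opposite-strand gene could make up 49.8% of the Kif3c counts in DKO etoposide libraries. Kif13a was also lower without etoposide (0.907 to 0.973 CPM in Null and 0 to 0.0898 in DKO control libraries), as was Kif24 (-0.37, limma adjusted p = 0.00322). Kifc3 (0.84, adjusted p = 3.45e-05) and Kif1b (0.28, adjusted p = 0.00469) were also higher without etoposide. The interaction passed in 2 lower and 1 higher of the 21, beside 6.39% and 3.07% of all genes.

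**Figure D5:**
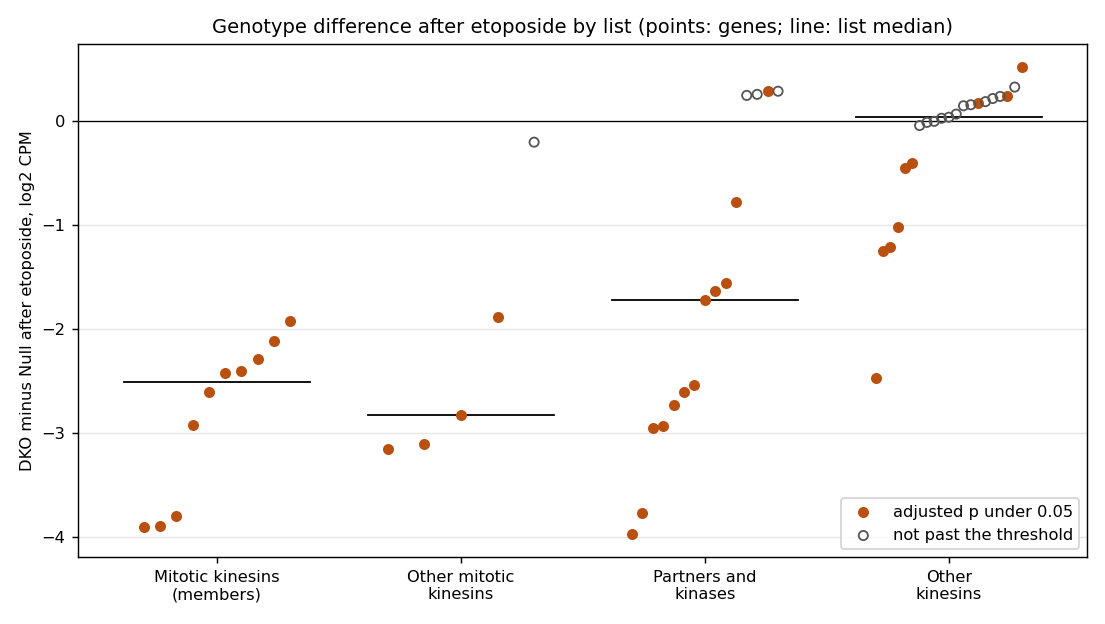
Log2 CPM difference of DKO minus Null cells after etoposide for the 10 members and 3 further lists; points are genes in order of their value within a list, filled where the adjusted p passed, and lines are list medians. The medians are -2.51 for the members, -2.82 for other mitotic kinesins, -1.72 for partners and kinases and 0.04 for other kinesins.

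Proteins that bind or phosphorylate the members were followed in a list of 15. In Null cells etoposide lowered 12 and raised 1, and in DKO cells also lowered 12 and raised 1 (beside 18.7% of all genes called lower and 20.9% higher in Null, and 19.1% and 20.2% in DKO cells), with median log2 differences of -0.77 and -2.85. After etoposide 11 of 15 had lower levels in DKO than in Null cells and 1 was higher, and the interaction passed as lower in 11, beside 17.8% and 6.39% of all genes called lower. Racgap1 and Ect2, which join Kif23 in centralspindlin signalling, were lower by -2.54 and -2.60 (limma adjusted p = 6.70e-10 and 2.62e-10). Prc1, the midzone bundler to which Kif14 binds, was 98.2 to 110 CPM in Null etoposide and 13.2 to 13.6 in DKO etoposide libraries (-2.95). By the estimate used for Kif20a, reads of the overlapping Rccd1 could make up 13.9% of the Prc1 counts in DKO etoposide libraries. Cit, citron kinase, was lower by -2.73.

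Chromosomal passenger complex genes, whose product Kif20a transports, were lower in DKO cells after etoposide in 4 of 4, with Birc5 at -3.77, Aurkb at -2.93, Incenp at -1.63 and Cdca8 at -1.55. Plk1, at 41.6 to 47.5 CPM in Null and 2.61 to 3.01 in DKO etoposide libraries, had -3.97. Tpx2 had -1.72 and Aurka, the kinase it activates, -0.78. The kinases Nek6, Nek7 and Nek9, which act on Kif11 and also outside mitosis, had 0.29, 0.26 and 0.25 and did not pass, and Kif1bp, which binds and holds back Kif15 and Kif18a, was higher by 0.29 (adjusted p = 0.0128) and also without etoposide, by 0.36 (adjusted p = 0.006), with an interaction of -0.07 (adjusted p = 0.83).

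A list of 12 on transcription control held genes of the complexes that read CHR and E2F words, together with Trp53 (p53) and its target Cdkn1a. After etoposide 7 had lower levels in DKO than in Null cells, none was higher (0 of 12) and 5 did not pass, beside 17.8% of all genes called lower and 15.9% higher. Mybl2 (B-Myb) and Foxm1, the activators, were at 59.3 to 65.1 and 60.6 to 62.8 CPM in Null etoposide and at 15.3 to 18.0 and 16.1 to 20.5 in DKO etoposide libraries (log2 differences -1.87 and -1.72, limma adjusted p = 2.47e-08 and 2.43e-06). Lin54, the MuvB subunit that contacts the CHR, had -1.25, Lin9 -1.24, Lin52 -0.41 (adjusted p = 0.00716) and Rbl1 (p107) -0.99. E2f4, Lin37, Rbbp4 and Trp53 did not pass (0.39, 0.66, -0.04 and -0.03).

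Rbl2 (p130), a repressor in the DREAM complex, rose in Null cells from 34.4 to 35.4 CPM in controls up to 80.1 to 85.9 CPM (log2 difference 1.26, limma adjusted p = 5.32e-08) and less in DKO cells, from 29.3 to 34.3 up to 39.0 to 40.8 CPM (0.33, adjusted p = 0.00262). Cdkn1a (p21), a p53 target that restrains the cyclin-dependent kinases, rose from 41.4 to 53.2 up to 386 to 396 CPM in Null and from 90.1 to 119 up to 285 to 340 CPM in DKO cells. It was higher in DKO than in Null cells without etoposide (1.15, adjusted p = 1.55e-05) and had -0.29 after it (adjusted p = 0.0779). The interaction was -0.93 for Rbl2 and -1.44 for Cdkn1a (adjusted p = 5.59e-05 and 0.000118). Both rose less in DKO than in Null cells.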

How the data were processed

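By the study's methods, the authors aligned read pairs, trimmed where required, of stranded, ribosome-depleted total RNA with HISAT2 and kept uniquely mapped pairs. The methods name HTSeq for counting, whereas the submitters' processing notes list featureCounts, with the mm10 build; the strand setting is not given in the sources used here. The authors deposited whole-number counts for each gene in 12 libraries, which were grouped by their labels. Identifiers were matched without version to GENCODE M21 on GRCm38 (32501 of 32688, 99.4%), which gave symbols, exon lengths and overlaps.

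Low-count genes were removed by filterByExpr (edgeR 4.0.16), which kept 18066 genes and 99.96% of counts. Counts were scaled by TMM (factors 0.939 to 1.03) and converted to log2 CPM with a prior count of 3. All 4 groups were fitted together with limma 3.58.1 (trend, robust) in R 4.3.3, with Benjamini-Hochberg adjustment over all genes and a threshold of 0.05. On simulated counts for 18066 genes of the comparison of the lines after etoposide, 98% of 2-fold and 100% of 4-fold changes were recovered, and 0.0634% of unchanged genes were called. Alternatives included limma-voom, edgeR quasi-likelihood and DESeq2 1.42.0. Levels per length divide CPM by summed exon length, and shares left are ratios of mean CPM with a delta-method SE. Named were all members, the targeted genes, genes of the 3 lists on further mitotic kinesins, partners and transcription control, the 3 other kinesins furthest in each direction among those called after etoposide, and the 5 genes most like the members. The members and lists were chosen with earlier results of these data known.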

Additional observations from a re-analysis of the deposited data

Results flagged for a closer look

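The response to etoposide differed between Null and DKO cells for each of the 10 mitotic kinesins by a test of the difference itself (limma interaction term, adjusted over 18066 genes). Of all genes tested, 9.45% were called for this term, 6.39% lower and 3.07% higher. The value, the log2 response in DKO minus that in Null cells, was -3.57 for Kif11, -3.85 for Kif14, -3.26 for Kif15, -2.26 for Kif18a, -2.47 for Kif20a, -2.24 for Kif20b, -2.49 for Kif22, -2.72 for Kif23, -3.85 for Kif2c and -1.98 for Kifc1. For 9 members both lines fell and DKO cells fell further. For Kifc1 the signs were opposite, 0.73 in Null and -1.26 in DKO cells, though the call in Null cells was lost under some alternatives. With 3 libraries a group, no single library was tested as standing apart.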

How the results depend on the processing

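Of the 1140 member results under alternatives, 1132 kept their side of the threshold, 6 lost the call and 2 gained one. The sign was opposite in 4, none of them called (0) in either fit: DKO against Null controls for Kif2c (-0.01 and -0.04, against 0.05) and Kifc1 (0.01 and 0.08, against -0.12). With an absolute log2 difference of at least 1 also required, 3 members were called for etoposide in Null cells and 0 for DKO against Null controls. Leaving out 1 library at a time gave 8 to 10 members called for etoposide in Null cells, 10 to 10 in DKO cells, 2 to 2 between the controls, 10 to 10 after etoposide and 10 to 10 for the interaction. The calls lost were those of Kifc1 and Kif20a in Null cells. Replicate numbers did not pair the samples (correlations of same-numbered deviations from -0.54 to 0.39). With the replicate block the members called were 9, 10, 2, 10 and 10 in that order, Kifc1 in Null cells being lost (0.73, limma adjusted p = 0.0563). Kif20a in control cells was called with DESeq2 (0.16, adjusted p = 0.00768) and Kif20b with library size alone (-0.27, adjusted p = 0.0261). Among other kinesins, the calls of Kif1b, Kif3c and Kif19a after etoposide were lost under several alternatives. Library size alone moved 7 of 40 levels per kilobase beyond 1 SD. With only the 2 control groups fitted, 2031 of 16626 genes were called between them, against 3490 of 18066. The causes were not tested. Member counts of 80 or more per library leave counting error small beside these differences.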
